A study of Mus musculus with 10 samples.

Results

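The genes described here encode the nuclear subunits of the mitochondrial respiratory chain and of ATP synthase, and they were followed through a reprogramming time course of mouse embryonic fibroblasts (MEFs). Members were picked by symbol alone, though with earlier results of these data known. They are the numbered Nduf genes of the a, b, c, s and v series, Sdha to Sdhd, and all symbols that begin with Uqcr, Atp5, Cox4i, Cox5, Cox6, Cox7 or Cox8, leaving out pseudogenes that carry "-ps". This gave 84 genes of the 48476 in the expression table, of which 35 belong to complex I, 4 to complex II, 8 to complex III, 20 to complex IV and 15 to complex V. The other 2, Atp5s and Atp5sl, are named for ATP synthase without being subunits of it. Of the 84, 79 had a mean TPM (the transcript level per length and library that RSEM gives) of at least 1 over the libraries and 5 did not, and 3 were at 0 in every library.

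The MEFs came from E13.5 embryos of the strain CBA/CaJ X C57BL/6J and, per the methods of the study, carried an Oct4-GFP reporter. All cells received retroviruses from PlatE packaging cells that carry Oct4, Klf4 and Sox2 (OKS). They also received either the red fluorescent protein DsRed, which the labels call DR and which serves as the control, or the forkhead factor FoxO6. Culture was then in iCD1 medium. Bulk RNA was sequenced at days 0, 1, 3, 5 and 7 from 1 library per arm and day, and since infection precedes day 0, the transduced factors were already present there. Library totals ranged from 1208379 to 2225750 expected counts, and an expressed member took a median of 94 reads a library. Foxo6 had at most 4 reads per library in OKS + DsRed and between 1743 and 3375 in OKS + FoxO6, as the labels say. All days of an arm may stem from 1 infected culture, so p-values here describe these 2 time courses and not independent infections. In bulk RNA, fewer cells of a type and less RNA per cell cannot be told apart.

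The respiratory chain sits in the inner mitochondrial membrane. Complex I (NADH dehydrogenase) and complex II (succinate dehydrogenase) pass electrons to ubiquinone. Complex III (the cytochrome bc1 complex) passes them on to cytochrome c and complex IV (cytochrome c oxidase) hands them to oxygen. The proton gradient that complexes I, III and IV build drives complex V, the ATP synthase. All complexes but complex II are mosaics of subunits from the nuclear and the mitochondrial genome, and several complex IV subunits exist as paralogs for muscle, testis or low oxygen. Cells on the way from fibroblasts to induced pluripotent cells are known to move from respiration towards glycolysis, which makes these genes of interest in such a course.

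As a group the members varied little between libraries. Their mean TPM had a median of 132.8, with 64 of the 84 between 50 and 500, and the highest library of a member exceeded its lowest by a median of 1.76-fold. The coefficient of variation over the 10 libraries had a median of 17.4% among the 75 members that average 20 TPM or more, against 25.9% among all 7610 genes at that level. Summed over members, the TPM lay between 13864 and 15483 in 9 libraries and reached 17563 in OKS + FoxO6 at day 7. The same library had the highest share of counts in members, 0.82%, where the others had between 0.58% and 0.691%.

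**Figure D1:**
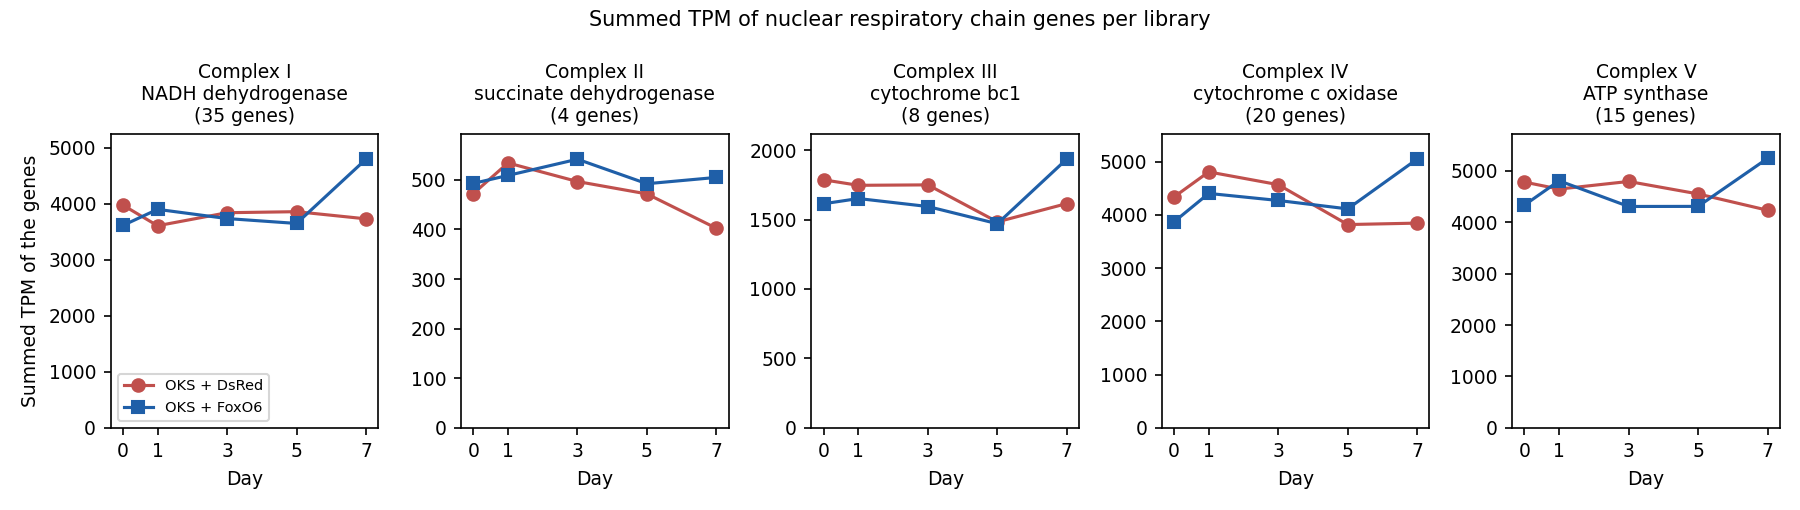
Summed TPM (y axis, from 0) of the genes of each complex in each library against day (x axis), with OKS + DsRed in red circles and OKS + FoxO6 in blue squares, 1 library per point. The OKS + FoxO6 library of day 7 is the highest point in complexes I, III, IV and V and not in complex II.

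The sums per complex were close between the arms. Complex I summed to 3803 ± 139.6 TPM (SD over 5 days, n = 5 libraries) in OKS + DsRed and 3939 ± 493 in OKS + FoxO6. In the same order of arms, complex II summed to 475 ± 48.1 and 508 ± 20.1 and complex III to 1676 ± 126 and 1653 ± 172. Complex IV summed to 4273 ± 438 and 4339 ± 443 and complex V to 4603 ± 229 and 4602 ± 418. In each complex the arm means differed by less than the larger SD over days. At day 7 the OKS + FoxO6 library held 4797, 1936, 5047 and 5245 TPM for complexes I, III, IV and V, above every other library, while complex II held 505 there and peaked at 542 in OKS + FoxO6 at day 3. Between libraries, complex I made up between 23.5% and 27.3% of the members' TPM, complex IV between 26.9% and 31.3%, and complex V between 29.8% and 32.0%.

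The promoters of the members were searched for motifs of the factors known to drive respiratory genes. RefSeq promoters (GRCm38.p6, 250 bases before to 50 after a start site) matched 69 members with 75 promoters. The palindromic site of nuclear respiratory factor 1 (NRF1), of 10 letters, was found in 6.7% of them, against 1.3% of 21262 promoters of all genes, and with its 5th letter free, which includes the former, in 24.0% against 6.4%. On both strands, the ETS and GABP core CCGGAAG was in 21.3% against 11.6%, the YY1 site AAGATGGCG in 9 of the 75 against 1.8%, the estrogen-related receptor site TCAAGGTCA in 2.7% against 0.3%, and the forkhead site TGTTTAC, the class that FoxO factors bind, in 4.0% against 3.0%. Counted by gene, the forkhead site was in 2.9% of the 69 members against 3.4% of all genes, since 2 of its 3 promoters belong to Atp5sl. These are shares of letters found, not of sites bound. No p is given, since promoters of 1 gene can overlap.

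The stretches with a full NRF1 match upstream of the start are shown here because they put the same 10 letters into genes of complexes I, IV and V, with the match in capitals, 5' to 3' on the gene's strand. They lie at chr15:102671055-102671114 (minus strand, Atp5g2), chr5:108434415-108434474 (minus, Atp5k), chr5:115349086-115349145 (minus, Cox6a1) and chr17:56717677-56717736 (plus, Ndufa11). The last is the window of Atp5g3, with the reverse complement of the estrogen-related receptor site in capitals, at chr2:73911345-73911403 (minus). The fifth NRF1 match, in Uqcrc1 of complex III, lies after the start and is not shown.
Atp5g2: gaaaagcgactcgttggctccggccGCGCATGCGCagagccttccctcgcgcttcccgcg
Atp5k: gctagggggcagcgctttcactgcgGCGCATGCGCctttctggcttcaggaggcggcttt
Cox6a1: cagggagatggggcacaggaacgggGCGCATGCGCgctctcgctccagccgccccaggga
Ndufa11: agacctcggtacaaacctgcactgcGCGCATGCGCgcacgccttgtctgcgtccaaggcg
Atp5g3: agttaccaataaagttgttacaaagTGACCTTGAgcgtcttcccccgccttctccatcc

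A shift between the arms that is shared by the 5 days was tested with edgeR's quasi-likelihood test on the counts of 12212 genes, with a factor for day and p-values adjusted by Benjamini-Hochberg over all of them. Of the 78 members tested, 0 were higher and 1 was lower in OKS + FoxO6 at an adjusted p under 0.05, against 6.63% of all genes higher and 6.89% lower. At an unadjusted p under 0.05 there were 3 members on each side, with 3379 of all genes in either direction, and DESeq2 called 0 higher and the same 1 lower. Without day 7 the unadjusted counts were 1 higher and 10 lower of 77 members, where 3373 of 11854 genes passed in either direction, a larger share. The median log2 shift of the members was 0.01, next to -0.02 for all genes tested. It depended on single days, at -0.13 without day 7, with 21 of 77 members above 0, and at 0.08 without day 0, with 55 of 77 above 0.

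The 1 member past the threshold was Ndufa4l2, at chr10:127514967-127517154 of GRCm38 (plus strand), a paralog of the complex IV subunit Ndufa4 that is known as a target of hypoxia-inducible factor. It had 1, 2, 0, 24 and 115 reads at days 0, 1, 3, 5 and 7 in OKS + DsRed and 0, 1, 0, 1 and 1 reads in OKS + FoxO6, so the arms parted at days 5 and 7 and were both at or under 3 reads before. In TPM these are 4.89, 4.18, 0, 56.2 and 188 in OKS + DsRed and 0, 1.40, 0, 3.14 and 1.28 in OKS + FoxO6. Lists of 5 values per arm follow the order of days 0, 1, 3, 5 and 7 throughout. Against a floor of 3 reads per library, its reads scaled to the library total were higher in OKS + DsRed by at least 12.1-fold at day 5 and by 32.0-fold or more at day 7. The fitted log2 shift was -5.01 (SE 0.73, adjusted p = 0.00197 by edgeR's quasi-likelihood test). It depends on how the fit treats libraries near 0 and is no bound. In all edgeR results here, SE is the absolute log2 value divided by the square root of the test's F statistic. The fit itself did not estimate it. Without day 5, or without day 7, the filter on low counts dropped the gene, so its call rests on those days. Its reads were whole numbers in every library, and the gene overlaps Shmt2, on the opposite strand, by 32 nt.

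Markers of other cell states moved with the same contrast. All 3 epithelial markers that could be tested (Cdh1, Epcam and Krt8) were lower in OKS + FoxO6, the summed TPM of the 5 listed reaching 610.4 in OKS + DsRed and 131.9 in OKS + FoxO6. Among the 7 fibroblast markers Postn was higher and Col3a1 lower. Of 3 pluripotency markers tested, Nanog was lower, with summed TPM of the 5 listed up to 287 and 49.2, and of the endothelial markers, both tested (Kdr and Tek) were higher, with sums up to 54.8 and 142.4. Their part in the difference of Ndufa4l2 was not tested.

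**Figure D2:**
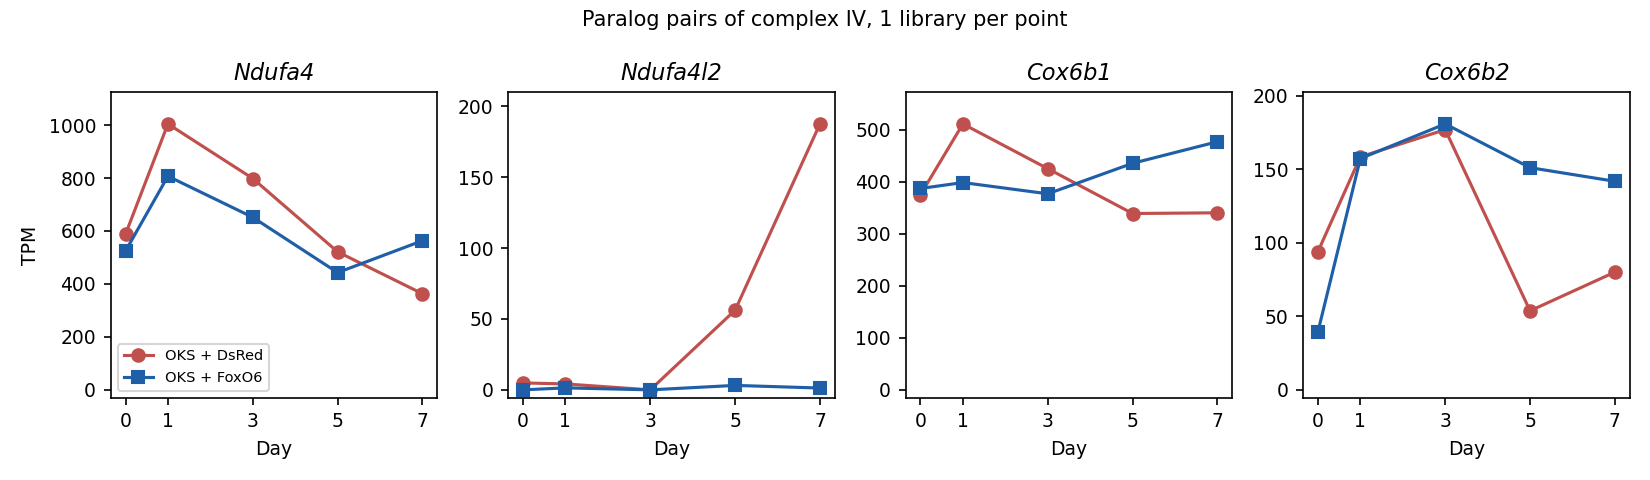
TPM (y axis) of Ndufa4 and Cox6b1 and of their paralogs Ndufa4l2 and Cox6b2 against day (x axis), with OKS + DsRed in red circles and OKS + FoxO6 in blue squares, 1 library per point. Ndufa4l2 is near 0 in OKS + FoxO6 throughout and climbs to 188 TPM in OKS + DsRed at day 7, where Ndufa4 is at its lowest, 363 TPM.

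Ndufa4 itself, the paralog present in most tissues and now counted in complex IV, was abundant in both arms. Its TPM was 588, 1004, 798, 521 and 363 in OKS + DsRed and 524, 807, 652, 443 and 563 in OKS + FoxO6. Both arms were highest at day 1, and its fitted shift between the arms was -0.14 (SE 0.16). Of the reads of this pair, Ndufa4l2 took 37.8% (95% Wilson interval 32.6 to 43.4) in OKS + DsRed at day 7 and 10.9% (7.44 to 15.7) at day 5, and at most 0.54% in the other libraries. Wilson intervals cover counting error only.

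Some members came near the threshold in this test. Ndufa1, an accessory subunit of complex I encoded on the X chromosome, had a TPM of 73.5, 81.05, 80.3, 28.6 and 48.99 in OKS + DsRed and 94.9, 98.95, 115, 85.8 and 128 in OKS + FoxO6. It was higher in OKS + FoxO6 on all 5 days, with a fitted log2 shift of 0.76 (SE 0.27, adjusted p = 0.0901 by edgeR), from 7 to 41 reads a library at an effective length of 357 nt. Over 10 alternatives its adjusted p ran from 0.0376 (no filter on low counts) to 0.274 (without day 5), under 0.05 only in the former and with an offset for transcript length. Ndufb2, an accessory subunit of the membrane arm, lay the other way, with 57.9, 24.99, 82.5, 71.2 and 31.8 in OKS + DsRed and 44.3, 20.4, 17.2, 35.96 and 24.1 in OKS + FoxO6. It was lower on all 5 days (log2 shift -0.67, SE 0.26, adjusted p = 0.125 by edgeR). Over the alternatives this ran from 0.0444, without day 7, to 0.38, without day 3. Atp5s, a factor related to ATP synthase, had 4.35, 3.71, 5.77, 7.18 and 7.22 in OKS + DsRed and 10.2, 8.55, 17.3, 10.4 and 13.3 in OKS + FoxO6 from at most 24 reads a library. Its shift was 1.06 (SE 0.37, adjusted p = 0.0853). Atp5sl, which later annotation calls Dmac2, a complex I assembly factor, had 16.2, 18.7, 29.1, 21.8 and 30.3 in OKS + DsRed and 10.5, 6.11, 15.4, 15.6 and 19.1 in OKS + FoxO6. Its shift was -0.66 (SE 0.24, adjusted p = 0.0926). Of the 79 expressed members, 7 were higher in TPM on all 5 days (Ndufa1, Ndufa11, Ndufv3, Sdha, Uqcrb, Cox7a2l and Atp5s) and 2 lower on all 5 (Ndufb2 and Atp5sl), which is 7 where 9.76% and 2 where 8.53% of the 15011 expressed genes did the same.

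Day by day, with 1 library a side and so no test, the members' differences were mostly below 0 at day 0 and mostly above 0 at day 7. The median difference in log2(TPM + 1), OKS + FoxO6 minus OKS + DsRed, was -0.14, 0.02, -0.05, -0.05 and 0.40 on days 0, 1, 3, 5 and 7. At day 0, 26 of the 79 members were above 0, and at day 7, 65 were. On CPM with TMM factors the median was -0.24 at day 0, where all genes had 0.02, and 0.50 at day 7, where all genes had 0. Over all expressed genes the medians were 0.09, 0, 0, 0 and -0.14. Over the 5 days the members' median averaged 0.04 ± 0.21 (SD over days), the value at day 7 being the highest of the 5. Without day 7 the average was -0.05. Medians at day 7 were 0.41 in complex I, 0.38 in complex II, 0.13 in complex III, 0.40 in complex IV and 0.40 in complex V.

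**Figure D3:**
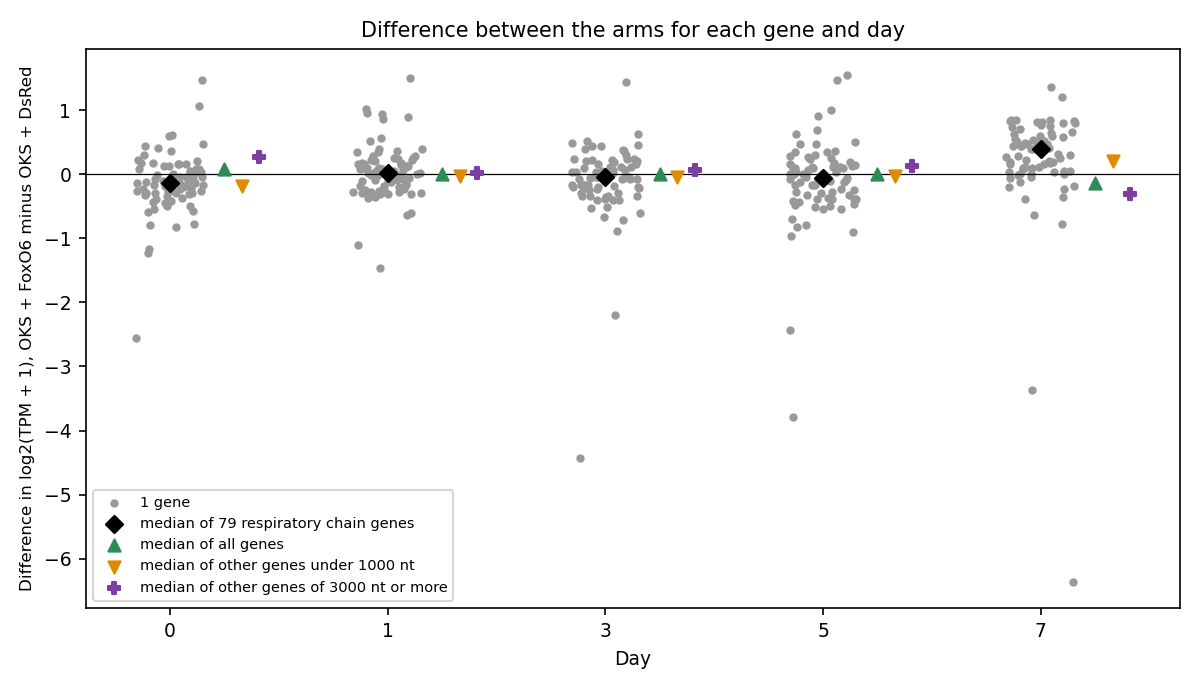
Difference in log2(TPM + 1) between the arms (y axis) for each of the 79 expressed members on each day (x axis, grey points), with the medians of the members (black diamonds), of all genes (green triangles), and of other genes with an effective length under 1000 nt (orange) or of at least 3000 nt (purple). The members' median is -0.14 at day 0 and 0.40 at day 7, there on the side of the short genes (0.20) and opposite to the long genes (-0.31).

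Transcript length moved with that difference. Members are short: their effective length has a median of 661 nt against 2341 nt over expressed genes, and 56 of the 79 are under 1000 nt, where 13.9% of expressed genes are. The OKS + FoxO6 library of day 7 had the shortest read-weighted median effective length, 2376 nt, beside 2524 nt in OKS + DsRed at day 0 and 2662 to 2779 nt in the other 8. At day 7, 836 non-member genes under 1000 nt, all averaging a TPM of 20 or more, had a median difference of 0.20 and 2640 such genes of at least 3000 nt had -0.31, and cytosolic ribosomal protein genes, short and abundant too, had 0.15. At day 0, where the lengths stand the other way, short genes had -0.18, long genes 0.28 and the members -0.14. With the trend over length removed from all expressed genes, the members' median at day 7 was 0.32, and with a trend fitted to genes that average 20 TPM or more, an alternative added after the data were seen, it was 0.20. The same corrections took the members' median at day 0 from -0.14 to -0.075 and to 0.022, which turns its sign. With 1 library per arm and day, a difference between the arms at day 7 and the length profile of that library cannot be told apart.

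Counted with the study's rule of a 2-fold change, few members passed on any day. A gene was counted here if its TPM was at least 1 in either of the 2 libraries compared, a wider set than the 79 expressed members. At day 0, 2 members were over 2-fold higher in OKS + FoxO6 (Atp5g2 and Atp5s) and 4 lower (Cox4i2, Cox6b2, Ndufa4l2 and Ndufb6), against 14.7% and 9.42% of all genes. The counts higher and lower were 2 and 2 at day 1 (all genes 11.3% and 13.3%), 1 and 2 at day 3 (11.4% and 15.5%), 3 and 2 at day 5 (13.8% and 15.0%), and 2 and 3 at day 7 (10.7% and 21.2%). With 77 to 81 members counted a day, each of these is a smaller share than among all genes. The sets differ in level: 75 of the 79 expressed members averaged 20 TPM or more, and 7610 of the 15011 expressed genes. The shares were not compared at a matched level. At day 7 the pair above was Ndufa1 and Ndufb4, and the 3 below were Cox4i2, Cox7a1 and Ndufa4l2, of which Cox4i2 and Cox7a1 had at most 3 reads in any library.

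Whether the difference between the arms grew or shrank along the days was tested as an interaction with day number. None of the 78 members passed (0 higher, 0 lower, against 0.991% and 0.614% of all genes, by edgeR's quasi-likelihood test), while 20 had an unadjusted p under 0.05, all with a positive slope. Of all 12212 genes, 2197 had such a p, in either direction. The members' 20 became 2 positive and 2 negative when day 7 was left out, where 1127 of 11854 genes had such a p. With the length offset they became 4 and 2, beside 1923 of 12212 genes. DESeq2 also called 0, with 9 members and 1055 of all genes at an unadjusted p under 0.05. The slope was positive in 69 of 78 members, with a median of 0.08 log2 units a day, where all genes tested had 0.005. The share of positive slopes over all genes was not counted. Markers of other cell types passed the same test with positive slopes, namely the fibroblast collagen Col1a2 (1 of 7 fibroblast markers, slope 0.36, adjusted p = 0.00163), the endothelial receptor Kdr (1 of 2 tested, 0.83, adjusted p = 0.00296) and Acta1, given below. Their part in the members' slopes was not tested. The smallest adjusted p-values belonged to Cox6b2 (slope 0.31, SE 0.08, adjusted p = 0.0817), Uqcrc1 (0.16, SE 0.04, adjusted p = 0.0848) and Cox4i1 (0.14, SE 0.04, adjusted p = 0.0988). Left without day 7, 47 of 77 slopes were positive with a median of 0.02, and with an offset for transcript length 49 of 78 were, also with a median of 0.02. All genes had a median of 0.004 under either setting.

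Between day 0 and day 7, in both arms together, 2 of the 78 members rose and 0 fell by edgeR's quasi-likelihood test, where 11.7% of all genes rose and 10.1% fell. At an unadjusted p under 0.05 there were 10 rises and 0 falls among the members, with 4135 of the 12212 genes in either direction, and DESeq2 called 1 rise and 0 falls. One of the 2 was Ndufa4l2 (log2 change 5.72, SE 1.06, adjusted p = 0.00348), whose reads, given above, place the change in OKS + DsRed. The other was Ndufa6, an accessory subunit of complex I at chr15:82350140-82354322 (minus strand). Its TPM was 102, 127, 154, 152 and 179.7 in OKS + DsRed and 99, 142, 149, 121 and 174 in OKS + FoxO6. It was lowest at day 0 and highest at day 7 in both arms, with a log2 change of 0.85 (SE 0.25, adjusted p = 0.0331). The call was lost in 4 of 8 alternatives (DESeq2, no filter on low counts, without day 3, and a linear trend over days), where its adjusted p was at most 0.162. Within the arms, the median change of the 79 expressed members in log2(TPM + 1) was -0.10 in OKS + DsRed, where all genes had 0.12, and 0.33 in OKS + FoxO6, where all genes had -0.07, and 64 of 79 were above 0 in the latter. These medians depended on the scale. In OKS + DsRed the median was -0.21 on CPM, and 0.028, with its sign turned, once the length trend of genes averaging 20 TPM or more was removed. In OKS + FoxO6 it was 0.46 on CPM, 0.17 with the length trend of all expressed genes removed and 0.14 with that other trend. Over 2-fold changes within an arm were also few, with 2 members up and 2 down in OKS + DsRed, against 26.2% and 13.7% of all genes, and 5 up and 2 down in OKS + FoxO6, against 17.3% and 20.2%. These shares too were not matched for level.

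**Figure D4:**
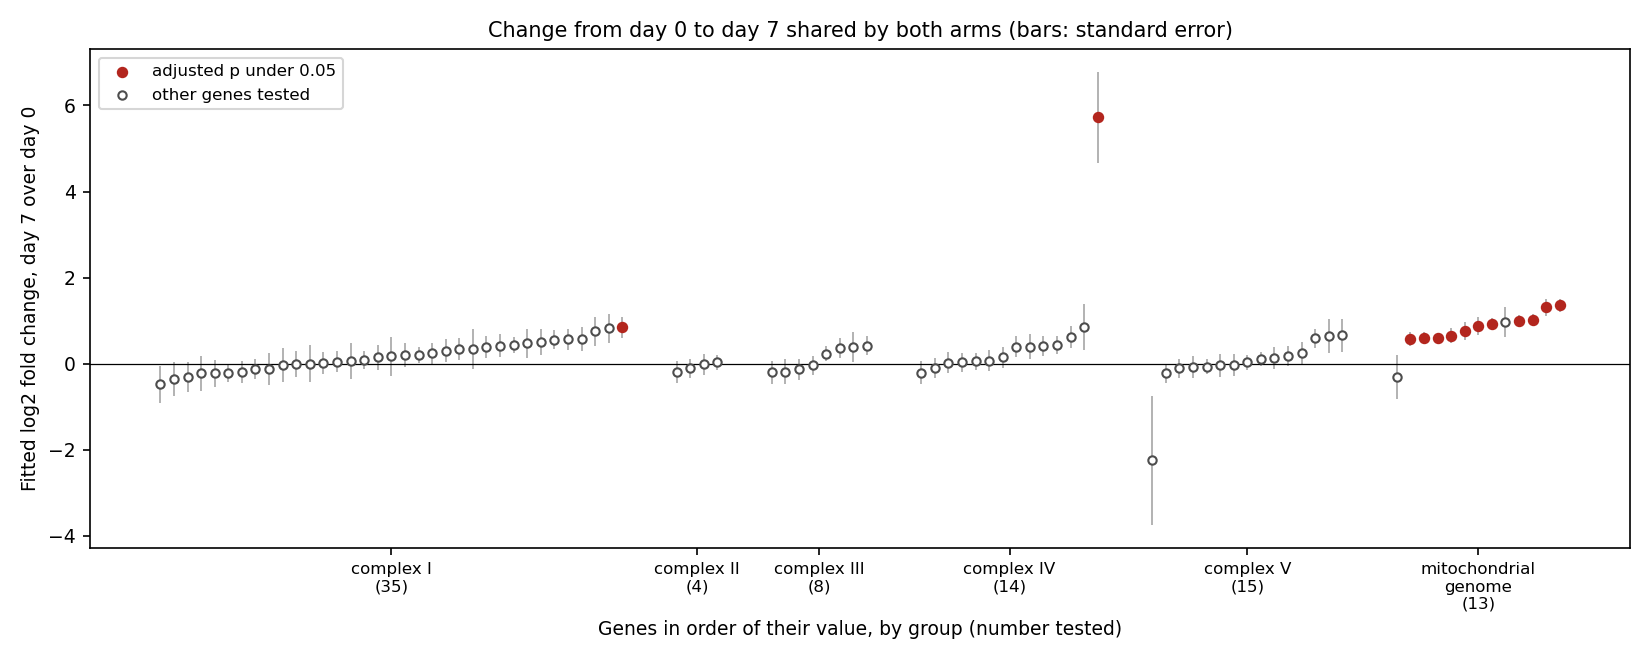
Fitted log2 fold change from day 0 to day 7 shared by both arms (y axis) for each member tested, in order of value within each complex, and for the 13 protein genes of the mitochondrial genome. Bars are the SE derived from the test's F statistic, not estimated by the fit. Filled red points passed an adjusted p under 0.05: Ndufa6 in complex I, Ndufa4l2 in complex IV, and 11 of the 13 mitochondrial genes.

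The mitochondrial genome gave another picture. Of its 13 protein genes, which encode further subunits of complexes I, III, IV and V, 11 rose from day 0 to day 7 by the same test and 0 fell, and mt-Nd3 and mt-Co2 did not pass. Examples were mt-Nd2 (log2 change 1.36, SE 0.15, adjusted p = 0.000109), mt-Cytb (0.99, SE 0.15, adjusted p = 0.000696) and mt-Co1 (0.60, SE 0.12, adjusted p = 0.00478). The median change of the 13 in log2(TPM + 1) was 0.82 in OKS + DsRed and 0.66 in OKS + FoxO6, and 0 of the 13 passed the test between the arms over the 5 days. Among them mt-Co2 had a shift of -0.86 (adjusted p = 0.128 by edgeR). Its TPM was 3632, 3513, 3480, 5946 and 3906 in OKS + DsRed and 1534, 5370, 3717, 2503 and 734 in OKS + FoxO6. The difference between the nuclear and the mitochondrial genes in this change was not itself tested.

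In the same interval all 7 fibroblast markers fell, their summed TPM running from 7461 down to 2256 in OKS + DsRed and from 6324 down to 2463 in OKS + FoxO6 between the highest and the lowest library, and 3 of 3 epithelial and 3 of 3 pluripotency markers tested rose. Of the 2 endothelial markers tested, Tek rose (log2 change 1.48, adjusted p = 0.000696 by edgeR). These markers move with the same contrast as Ndufa6 and the mitochondrial genes, and their part in those values was not tested. Only 1 macrophage marker (Cd68, not called) and 0 erythroid markers had enough reads to be tested. Of the 5 muscle markers, Myog was at 0 in every library and only Acta1 could be tested. Acta1, the skeletal muscle actin, stood at a TPM of 236 in OKS + FoxO6 and 3.81 in OKS + DsRed on day 7, and its interaction with day passed (slope 0.82, adjusted p = 0.0338 by edgeR). It moves with the members' differences at day 7, and its part in them was not tested.

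Other nuclear genes of the pathway were taken from lists made alongside the members, and their calls are read against the shares of all genes given above for the same tests. Of 6 structural partners that the symbols leave out, among them cytochrome c (Cycs) and cytochrome c1 (Cyc1), 0 passed any of the 3 tests. The same held for the 42 of 46 listed assembly factors that were tested. It also held for the 11 of 16 listed regulators of mitochondrial biogenesis that were tested, which include Nrf1, Gabpa, Esrra and Tfam. The regulators not tested were Ppargc1a, Ppargc1b, Esrrb, Esrrg and Ppara. Of 12 citrate cycle genes, 1 was lower in OKS + FoxO6 over the 5 days (Idh3g), where 6.89% of all genes were, and 1 fell along the course (Dlst), where 10.1% did, so neither count stands apart from the background. At day 7 the median differences between the arms, over listed genes averaging 1 TPM or more, were 0.33 for the partners and -0.03 for the assembly factors. They were -0.39 for the 13 such regulators and -0.08 for the citrate cycle genes.

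Complex I takes electrons from NADH through a core of nuclear subunits, several of which are described here. Ndufv1, which binds FMN and NADH, had a TPM of 64.7, 76.2, 70.4, 84.3 and 68.3 in OKS + DsRed and 72.3, 85.5, 83.1, 75 and 93.3 in OKS + FoxO6. Its iron-sulfur partner Ndufv2 had 158, 131, 133, 175 and 156 in OKS + DsRed and 126, 154, 153, 98.2 and 185 in OKS + FoxO6. The largest iron-sulfur subunit, Ndufs1, had 74.8, 87.4, 63.6, 98.9 and 84.5 in OKS + DsRed and 72.3, 113, 83.5, 113 and 84.3 in OKS + FoxO6. In each of the 3 the arms overlapped, with fitted shifts of 0.17 (SE 0.16), -0.07 (SE 0.16) and 0.07 (SE 0.12). In the module that reduces ubiquinone, Ndufs3 had 97.4, 91.8, 68.1, 72.6 and 98.3 in OKS + DsRed and 97.5, 96.6, 95.96, 81.05 and 90.5 in OKS + FoxO6. The iron-sulfur subunits Ndufs7 and Ndufs8 belong to the same module. Ndufs7 had 150.5, 106, 109, 73.2 and 90.03 in OKS + DsRed and 113, 85.5, 104, 104 and 131 in OKS + FoxO6. Ndufs8 had 80.7, 79.1, 78.96, 105 and 84.4 in OKS + DsRed and 68.7, 78.3, 79.8, 72.3 and 121 in OKS + FoxO6. For Ndufs7 the OKS + DsRed arm held both the highest and the lowest library, and for Ndufs8 the highest was OKS + FoxO6 at day 7. Among all 35 genes of complex I the fitted shifts between the arms ran from -0.67 (Ndufb2) to 0.76 (Ndufa1), neither past the threshold, and the highest mean TPM was that of Ndufa12, counted with its copy below.

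Ndufv3, an accessory subunit of the NADH module at chr17:31520115-31531331 (plus strand), was measured on another transcript length in each arm. Its effective length, which RSEM takes from the mix of isoforms, was 725, 616, 685, 800 and 781 nt in OKS + DsRed and 602, 569, 595, 601 and 562 nt in OKS + FoxO6, without overlap. Singled out after its values were seen, it was the only one of the 79 expressed members whose lengths did not overlap between the arms with means over 5% apart, where 0.773% of expressed genes had that. The annotation holds coding transcripts of 493 nt in 3 exons, of 645 nt in 3 exons and of 1582 nt in 4 exons. The longest has an internal exon of 1092 nt (31527310 to 31528401). Which mix of them gave the lengths was not tested. Its TPM was 103, 127, 128, 121 and 132 in OKS + DsRed and 114, 139, 131, 149 and 185 in OKS + FoxO6. It was higher in OKS + FoxO6 on all 5 days, whereas its counts gave a fitted shift of -0.08 (SE 0.14), so the direction depends on whether length is divided out. No test was run on the isoforms.

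Complex II, the one complex without mitochondrially encoded subunits, links the citrate cycle to the chain. The flavoprotein Sdha, which oxidises succinate, had a TPM of 107, 139, 145, 130.4 and 112 in OKS + DsRed and 113, 155, 187, 142 and 116 in OKS + FoxO6. The iron-sulfur subunit Sdhb had 136, 175, 137, 165 and 118 in OKS + DsRed and 159, 143, 140.1, 131 and 167 in OKS + FoxO6. Sdha was higher in OKS + FoxO6 on each day, yet its shift of 0.06 (SE 0.11, adjusted p = 0.775 by edgeR) was within the spread. The membrane anchors, which bind ubiquinone, are Sdhc and Sdhd. Sdhc had 71.2, 95.7, 92.5, 65.4 and 68.8 in OKS + DsRed and 109, 79.3, 96.04, 107 and 95.4 in OKS + FoxO6. Sdhd had 157, 124, 122, 111 and 103 in OKS + DsRed and 111, 132, 119, 113 and 126 in OKS + FoxO6. Fitted shifts in this complex lay between -0.04 (Sdhd) and 0.17 (Sdhc), and its sum had the narrowest spread in OKS + FoxO6, 508 ± 20.1 TPM.

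Complex III is built on the core proteins Uqcrc1 and Uqcrc2 and the Rieske iron-sulfur protein Uqcrfs1. Uqcrc1 had a TPM of 247, 215, 176, 171 and 146 in OKS + DsRed and 202, 174, 190.4, 175 and 249 in OKS + FoxO6. In OKS + DsRed its values descend over the days, while in OKS + FoxO6 day 7 is the highest, and it had one of the smallest p-values in the interaction test above. Uqcrc2 had 103, 158, 134, 111 and 122 in OKS + DsRed and 116, 149, 116, 110.3 and 125 in OKS + FoxO6. The Rieske protein had 139, 118, 102, 120.0 and 92.4 in OKS + DsRed and 81.02, 117, 125, 85.7 and 94.3 in OKS + FoxO6. Shifts over the 8 genes ran from -0.23 (Uqcr10) to 0.20 (Uqcrb), 0 of them past the threshold, and the highest mean level belonged to the small subunit Uqcrh, with 253, 297, 339, 272 and 287 in OKS + DsRed and 216, 262, 257, 208 and 322 in OKS + FoxO6.

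Complex IV holds the paralogs. In each family the form known from most tissues held most of the TPM, and the muscle forms were at or near 0 throughout. Cox4i1 had 590.0, 578, 564, 445 and 479 in OKS + DsRed and 552, 509.6, 535, 544 and 716 in OKS + FoxO6. Cox4i2, the form of lung and low oxygen, had 1 read in OKS + DsRed at day 0, 3 at day 7 and 0 in the other 8 libraries. Cox6a1 had 768, 649, 602, 541 and 547 in OKS + DsRed and 670.4, 612, 634, 593 and 772 in OKS + FoxO6. Its muscle form Cox6a2 had 0 reads in every library, where a limit of 3 reads is 0.8% to 1.58% of the pair's reads in a library and the upper 95% Wilson bound 1.02% to 1.98%. Both Cox4i1 and Cox6a1 were highest in OKS + FoxO6 at day 7 and lowest in OKS + DsRed at day 5. Cox7a2 had 77.97, 111, 107, 106 and 112 in OKS + DsRed and 88.2, 122, 103, 113 and 127 in OKS + FoxO6. The muscle form Cox7a1 had 0 to 3 reads per library. Cox7a2l, a factor that joins complexes III and IV, had 94.8, 88.1, 121, 101 and 125 in OKS + DsRed and 95.6, 95.1, 123, 112 and 126 in OKS + FoxO6, close between the arms on every day. Cox7b had 151, 125, 119, 135 and 139 in OKS + DsRed and 138, 149, 126, 146 and 139 in OKS + FoxO6, its testis form Cox7b2 being at 0 everywhere. Cox8a had 464, 483, 605, 465 and 471 in OKS + DsRed and 386, 479, 528, 499 and 623 in OKS + FoxO6. There was 1 read of the muscle form Cox8b in each library of day 7 and 0 of the testis form Cox8c. A count of 0 limits these forms at this depth and does not show them to be absent.

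The exception among the tissue forms was Cox6b2, known from testis. It had a TPM of 94.04, 158, 177, 53.8 and 80.1 in OKS + DsRed and 39.6, 157, 181, 151 and 142 in OKS + FoxO6, from 17 to 79 reads per library. Cox6b1 had 375, 511, 425, 339 and 340.3 in OKS + DsRed and 387, 398, 377, 435 and 477 in OKS + FoxO6. The share of Cox6b2 in the reads of the pair was lowest in OKS + FoxO6 at day 0, 7.94% (95% Wilson interval 5.20 to 11.9), and highest in the same arm at day 3, 28.1% (23.2 to 33.6), and in OKS + DsRed it ranged from 11.9% (7.56 to 18.2) at day 5 to 24.5% (19.3 to 30.4) at day 3. From day 0 to day 7 the difference in log2(TPM + 1) was -0.23 in OKS + DsRed and 1.82 in OKS + FoxO6, whose day 0 was the low point, and 0 of the 3 tests called it (adjusted p = 0.0817 for the interaction, the smallest of any member, by edgeR). Over the alternatives that gave one, this p ran from 0.00627, without the filter on low counts, to 0.27, without day 0, and was above 0.05 in the others.

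Complex V had the highest mean summed TPM, and Atp5b, the catalytic beta subunit at chr10:128083273-128090391 (plus strand), was the highest member of all. Its TPM was 963, 1029.6, 1016, 934 and 932 in OKS + DsRed and 849.8, 1044, 968, 981 and 939 in OKS + FoxO6. The alpha subunit Atp5a1 had 477, 482, 545, 562 and 463 in OKS + DsRed and 465, 483, 431, 517 and 476 in OKS + FoxO6. Their fitted shifts between the arms were -0.05 (SE 0.11) and -0.16 (SE 0.11), and at day 7 their differences between the arms were 0.01 and 0.04 in log2(TPM + 1), where the members' median was 0.40.

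The membrane ring of ATP synthase is made of 1 protein encoded by Atp5g1, Atp5g2 and Atp5g3, which differ in the part that is cleaved off on import. Atp5g1 had a TPM of 293, 245, 225, 217 and 173 in OKS + DsRed and 242, 219, 176, 168 and 282 in OKS + FoxO6. Atp5g3 had 391, 369, 271, 251 and 269 in OKS + DsRed and 361, 393, 321, 244 and 356 in OKS + FoxO6. In OKS + DsRed both were highest at day 0, and in OKS + FoxO6 Atp5g1 was highest at day 7 and Atp5g3 at day 1. Atp5g2 came out at 6.75, 0, 66.8, 3.04 and 4.21 in OKS + DsRed and 20.5, 0, 2.14, 2.10 and 4.63 in OKS + FoxO6. Its counts were fractional in 8 of 10 libraries, since RSEM splits reads that map to several transcripts. A transcribed processed pseudogene, Gm10175, is identical to it over its whole aligned transcript (100% identity) and the 2 near-identical copies of Atp5g2, of which Gm10175 had the most reads, took 97.6% of the reads assigned to the 3 genes.

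**Figure D5:**
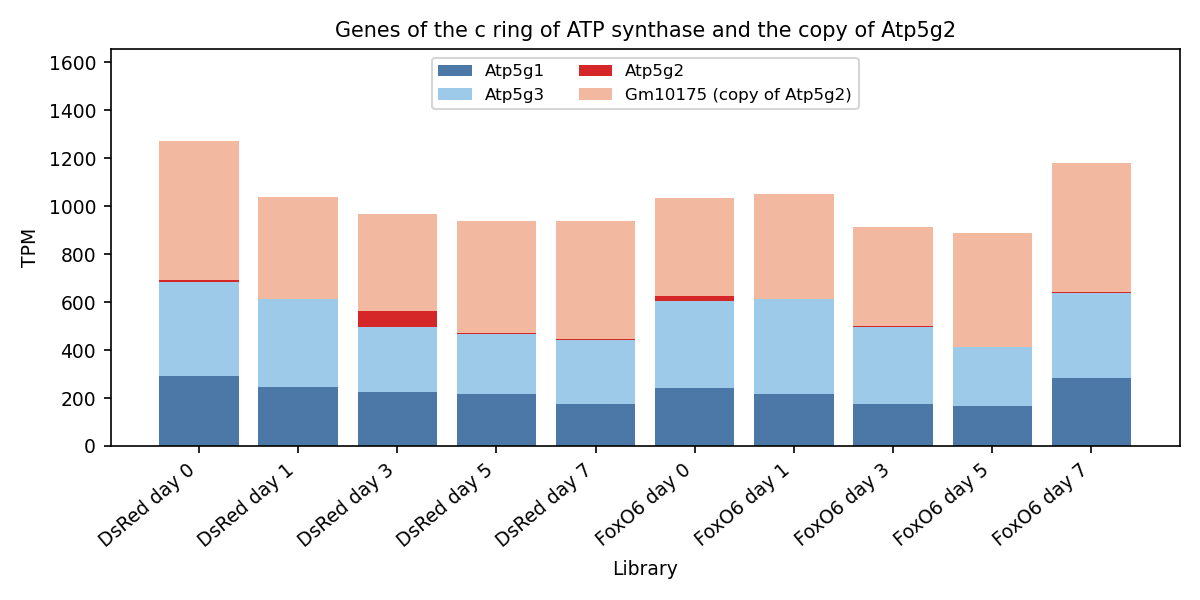
TPM (y axis, stacked from 0) of the genes of the c ring of ATP synthase and of Gm10175, the pseudogene copy of Atp5g2, in each library (x axis). The copy carries between 402 and 582 TPM, and Atp5g2 reaches 66.8 TPM in OKS + DsRed at day 3 and at most 20.5 elsewhere.

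Added together, Atp5g2 and Gm10175 stood at 490 ± 60.8 TPM in OKS + DsRed and 461 ± 50.4 in OKS + FoxO6 (SD over 5 days, n = 5), between 414 and 588 in every library, above Atp5g1 and Atp5g3. Which of the loci the reads came from cannot be read from these values, and the 2-fold differences of Atp5g2 between libraries are uncertain for that reason. In all, 15 members had a near-identical copy (at least 95% identity over at least 50% of a transcript), 28 of the 29 copies being pseudogenes, but only for Atp5g2, Ndufs5 and Ndufa12 did copies hold over 5% of the reads. Ndufs5 with its copy BC002163 summed to 154 ± 24.0 and 159.8 ± 44.2 TPM, and Ndufa12 with Gm15920 to 368 ± 81.1 and 353 ± 83.1. On their own, Ndufs5 and Ndufa12 had means of 92.5 and 302 TPM in OKS + DsRed and 97.6 and 300.4 in OKS + FoxO6, so the copies changed the levels and not the order of the arms beyond the spread. Beyond copies, 25 members overlap another protein-coding gene, and 68 of the 84 had whole counts in every library.

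In the promoter windows shown above, the match ends 33 bases before the RefSeq start in Atp5g2, 41 in Atp5k, 51 in Ndufa11 and 153 in Cox6a1, and the receptor site ends 44 before that of Atp5g3. None of these 5 genes passed a test between the arms, and their fitted shifts were -1.03 (SE 1.10, Atp5g2), 0.05 (SE 0.25, Atp5k), 0.06 (SE 0.15, Cox6a1), 0.39 (SE 0.17, Ndufa11) and 0.11 (SE 0.14, Atp5g3). Ndufa11, an accessory subunit of the membrane arm of complex I, had the nearest to a call, with an adjusted p of 0.161 by edgeR and TPM values of 29.2, 30.5, 34.8, 37.1 and 30.1 in OKS + DsRed and 39.8, 43.98, 39.1, 37.2 and 54.1 in OKS + FoxO6. It was higher in OKS + FoxO6 on every day although nearly level at day 5.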

How the data were processed

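RNA-seq of 10 libraries (2 arms, 5 days, 1 library each) was used, grouped by the sample titles. The authors aligned reads to the GENCODE M13 transcriptome (mm10) with bowtie2 and RSEM, whose versions are not given in the sources used here. They deposited RSEM expected counts, not normalized, and TPM values computed from them by the authors. The labels name a VAHTS mRNA-seq kit and the methods a TruSeq kit. Members, lists and tests were chosen with earlier results of these data known.

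Expected counts were rounded and tested with edgeR 4.0.16 in R 4.3.3 (TMM, filterByExpr, quasi-likelihood test, Benjamini-Hochberg over all 12212 genes, adjusted p under 0.05, common dispersion 0.0367, 4 residual degrees of freedom and 3 for the interaction), with DESeq2 1.42.0 as an alternative. SE values of edgeR results are the absolute log2 value over the square root of the quasi-likelihood F, not estimates of the fit. Scripts were tested on simulated data. Differences on single days are on the log2(TPM + 1) scale, which understates changes of low genes, and have no replicate check. Medians are over genes averaging 1 TPM or more, and 2-fold counts over genes at 1 TPM or more in either library compared. Python 3.11.15 was used with pandas 2.3.3, numpy 2.4.6, statsmodels 0.14.6, scipy 1.17.1 and matplotlib 3.10.9. Depth was 1208379 to 2225750 counts a library, and intervals and floors (3 reads) cover counting error only. Lengths are RSEM effective lengths, the trend over length is a lowess with a span of 0.3, and ribosomal protein genes exclude the Rps6k kinases. Coordinates are from GENCODE M21 on GRCm38, the build of mm10. Copies were found by aligning member transcripts to all M21 transcripts with blastn. Named genes are all members by role, with values per library for the complex core, the paralogs, members past a threshold and the extremes of each complex, and genes outside this rule are marked. Alternatives were other size factors, no filter, a length offset or trend, other pseudocounts, CPM, no day term, a linear trend and each day left out. Values of some genes are not reported here.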

Additional observations from a re-analysis of the deposited data

How the results depend on the processing

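The call of Ndufa4l2 between the arms held in all 7 alternatives that tested it (log2 shift from -5.65 to -4.28, adjusted p at most 0.00319), and its rise along the course in all 6 (5.31 to 5.92, adjusted p at most 0.0036). Where day 5, day 7 or the day term was left out, the low count filter dropped the gene. Leaving out single days gave 0 to 1 members lower and 0 higher in OKS + FoxO6, the 1 without day 7 being Ndufb2, and without a day term 0 were lower. With no filter, or with a length offset, 1 was higher (Ndufa1). Along the course 1 member rose under DESeq2, with no filter (both Ndufa4l2) and as a linear trend (Atp5sl), and 1 to 2 with a day left out. In the interaction, 2 rose with no filter (Cox6b2 and Uqcrc1) and 0 to 1 with a day left out (Uqcrc1, without day 5). The median change of members from day 0 to day 7 was -0.21 in OKS + DsRed on CPM and 0.028 with the length trend of genes averaging 20 TPM or more, where TPM gave -0.10. In OKS + FoxO6 it was 0.46 on CPM, 0.17 with the length trend removed and 0.14 with that other trend, where TPM gave 0.33. The causes of these moves were not tested. The median difference between the arms, averaged over the days, was 0.037. With single days left out it ran from -0.054 (without day 7) to 0.08 (without day 0), within its SD over days, so its sign rests on day 7, and in the other alternatives from 0.024 to 0.05. The day term sets the 2 arms side by side within each day. No paired analysis by replicate was possible because each arm and day has 1 library, so the block would hold 1 level. Depth limits the tissue paralogs, most of which had 0 to 3 reads.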

Other observations

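Because Ndufa4l2 is known as a target of hypoxia-inducible factor, other genes known to answer to low oxygen were read after its values were seen, so their choice is not independent of it. In OKS + DsRed, TPM at days 0, 1, 3, 5 and 7 was 14.9, 2.54, 8.96, 31.4 and 126 for Egln3, an oxygen sensor, and 49.9, 38.4, 47.5, 197 and 536 for Slc2a1, the glucose transporter GLUT1. In OKS + FoxO6 Egln3 stayed between 3.16 and 6.01 and Slc2a1 between 41.6 and 85.8. Pdk1, which holds pyruvate back from the citrate cycle, was at 53.4 at day 7 in the DsRed arm and 5.01 in the FoxO6 arm, Ankrd37 at 27.7 and 6.25, and Vegfa at 80.6 and 6.18. Bnip3 was at 83.7 and 28.3 then, but on days 0, 1 and 3 it was higher in OKS + FoxO6, with 10.7, 25.6 and 30.3 against 4.16, 17.2 and 8.32. Vegfa was already at 80.2 and 61.5 at day 0, so its pattern is another. Car9 reached at most 2.1. The complex IV paralog of low oxygen, Cox4i2, had at most 3 reads. These are single libraries a day, with no test, and the oxygen supply of the cultures was not analysed here.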
